A study of Mus musculus with 6 samples.

Results

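Solute carriers are the membrane proteins that move nutrients, ions and metabolites into cells and between their compartments. The genes described here are those whose symbol begins with Slc and a digit in a table of transcript abundance from mouse osteoblast-like cells, with the transcripts of each symbol summed. They number 189 of the 13659 symbols in the table and are represented by 519 of its 37478 transcripts. A mean of at least 1 FPKM (sequenced fragments relative to transcript length and library size) over all libraries was reached by 162 of the 189, and by 11628 symbols of the whole table. The other 27 were not tested. Members were assigned to substrate classes by their family number, and the classes ranged from 39 mitochondrial carriers to 5 carriers of phosphate and sugar phosphate. The symbols Slc9a3r1, Slc9a3r2, Slc7a6os, Slc4a1ap and Slc2a4rg-ps match the pattern but do not name carriers, and were kept as a class of their own with 5 members.

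The cells were MC3T3-E1, subclone 4, an osteoblast-like line derived from mouse calvaria, in 2 groups of 3 libraries each. One group received vehicle and the other PTH(1-34), a parathyroid hormone fragment that activates its receptor. The duration of treatment is uncertain, since the sample characteristics state 30 min and the protocol states 2 h. Both groups are 1 subclone of 1 line, no genotype differs between them, and nothing in the labels says whether the 3 libraries are separate cultures; the p-values therefore rest on spread that may be technical.

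The PTH receptor is a G protein-coupled receptor that acts through cyclic AMP and protein kinase A, and cyclic AMP-dependent transcription factors bind the cyclic AMP response element (CRE) of gene promoters. Osteoblasts use solute carriers to take up the glucose, glutamine and other amino acids that feed collagen synthesis, the phosphate and zinc that mineralization needs, and the sulfate and nucleotide sugars of matrix glycans. Carriers of the Slc25 family sit mostly in the inner mitochondrial membrane and exchange nucleotides, phosphate, metabolites and cofactors with the cytosol.

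The carrier gene with the largest rise was Slc25a25, and one of its promoter windows holds a CRE. In the RefSeq promoter table (GRCm38.p6), Slc25a25 has 3 windows, each from 250 bases before to 50 after a start site. The window at chr2:32424017-32424316, on the minus strand, holds a full CRE (TGACGTCA) whose first base lies 150 bases before the start site, and the other windows do not. It is printed because it holds this motif, and the changes of the gene's single transcripts played no part in that choice. Slc41a2, a magnesium carrier gene that also rose, holds only the CRE core (TGACG) in its window at chr10:83337768-83338067, minus strand, 82 bases before the start site. Both sequences run 5′ to 3′ on the gene's strand, with the full CRE or the CRE core in capitals.
Slc25a25: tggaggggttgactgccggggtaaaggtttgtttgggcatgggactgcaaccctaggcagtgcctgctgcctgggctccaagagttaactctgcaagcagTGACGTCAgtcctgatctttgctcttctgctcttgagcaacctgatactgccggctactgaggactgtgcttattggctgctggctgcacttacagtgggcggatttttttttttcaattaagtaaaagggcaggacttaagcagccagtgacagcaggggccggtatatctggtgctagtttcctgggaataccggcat
Slc41a2: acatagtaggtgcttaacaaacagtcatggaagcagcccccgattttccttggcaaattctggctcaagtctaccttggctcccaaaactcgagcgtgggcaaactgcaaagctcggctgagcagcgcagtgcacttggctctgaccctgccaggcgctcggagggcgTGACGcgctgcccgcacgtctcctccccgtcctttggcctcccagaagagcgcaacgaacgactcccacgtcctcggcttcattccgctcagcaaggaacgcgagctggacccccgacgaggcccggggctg
Slc35d1 and Slc3a2, the other 2 of the 4 largest risers that have a window, hold neither motif there. Slc12a2 and Slc25a32 have no entry in the table.

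Both motifs were searched on both strands over the windows of all genes in the table, and 142 of the 189 solute carrier symbols had a window. Each full CRE also holds the CRE core on both strands. The full CRE was present in 4 of the 142 genes (2.82%), namely Slc25a25, Slc18a2, Slc25a36 and Slc38a6, against 2.03% of all genes in the promoter table and 3.79% of all tested genes. Slc25a36 and Slc38a6 were called higher only with centred libraries (log2 0.28 and 0.18), and Slc18a2 was below the filter. As deposited, the full CRE was in 1 of 23 higher solute carrier genes (4.35%) and 0 of 53 lower. Over all tested genes its shares were 7.72% of those higher and 2.60% of those lower. The CRE core was present in 12 of 23 solute carrier genes that were higher with PTH (52.2%), in 13 of 53 that were lower (24.5%) and in 39.2% of those not called. Over all tested genes the CRE core shares were 47.9% of those higher and 33.4% of those lower. Such a match is a description of letters in a window, and binding was not measured.

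The values are the authors' FPKM estimates, the sequencing depth behind them is unknown, and no counting interval is given. Libraries of the same group correlated at 0.982 or more across genes, and libraries of different groups at 0.953 or less. The median FPKM of tested genes was 11.8 to 11.9 in the vehicle libraries and 10.8 to 10.9 in the PTH libraries, so every fold change rose by 0.12 on the log2 scale once each library was centred on its median. Of 8 osteoblast markers 7 were in the table, and their summed level was 241.5 to 420.6 FPKM in vehicle and 225.0 to 370.2 FPKM with PTH, lowest in the library numbered 1 of each group. Of these 7, Runx2 and Bglap were higher with PTH and Sp7 and Dlx5 were lower, but Dlx5 was not called with centred libraries. The replicate block also called Pth1r and Ibsp lower, 4 of the 7 in all. Of 4 chondrocyte markers 2 were in the table, with sums of 9.77 to 13.7 FPKM in vehicle and 25.1 to 31 FPKM with PTH, and the rise lay in Sox9, which osteoblast precursors also express. Col2a1, which defines cartilage, stood at a mean of 2.50 FPKM in vehicle and 4.33 FPKM with PTH, and was called higher only with the replicate block. Markers of adipocytes (1 of 4 in the table), muscle (1 of 4) and macrophages or blood (2 of 5) summed to at most 1.51 FPKM in any library. In bulk RNA, fewer cells of a type and less RNA per cell cannot be told apart, and the part of marker shifts in the results below was not tested.

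With PTH, a few solute carrier genes rose strongly, and the largest fall was -0.88 on the log2 scale. In the values as deposited the calls of lower genes outnumbered those of higher genes, but this balance depended on the scaling and the share of lower calls was near that of all tested genes. Of the 162 tested, 27 were higher (16.7%) and 69 were lower (42.6%) with PTH, and 66 were not called (limma, threshold of 0.05 on the adjusted p). Over all tested genes, 10.8% were higher and 41% were lower. A called rise of at least 1 on the log2 scale was seen in 6 solute carrier genes and a fall of that size in 0, against 3.09% and 1.56% of all tested genes. The median log2 difference was -0.17 for the solute carriers and -0.15 for all tested genes. The 6 with the large rise were Slc25a25, Slc12a2, Slc35d1, Slc25a32, Slc3a2 and Slc41a2, from 4 substrate classes.

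The balance of calls turned with the scaling. Cyclic loess gave 49 solute carrier genes higher and 31 lower, against 20.2% and 17.6% of all tested genes, and TPM gave 17 and 18, against 7.45% and 10.2%. With centred libraries, 39 solute carrier genes were higher and 42 lower, against 18.3% and 24% of all tested genes, and the medians were -0.04 and -0.03. With the library number as a replicate block, 32 were higher and 82 lower, against 13.8% and 50% of all tested genes. The PTH libraries lay wholly above the vehicle libraries in 31 solute carrier genes (19.1%) and wholly below in 78 (48.1%), where all tested genes gave 13.1% and 47.5%. Under every scaling tried, the same call was made for 15 genes as higher and 13 as lower, where all tested genes gave 6.88% and 8.22%. The 15 were Slc12a2, Slc16a1, Slc1a3, Slc1a6, Slc20a1, Slc25a25, Slc25a28, Slc25a32, Slc2a1, Slc35d1, Slc38a2, Slc3a2, Slc41a2, Slc5a3 and Slc9a3r1. Among the 13 were Slc24a6, Slc25a15, Slc25a43, Slc26a11, Slc29a3, Slc31a2, Slc35c1, Slc35d2, Slc38a7, Slc39a13, Slc43a1 and Slc9a3r2. Slc1a6 and Slc35d2 passed the filter only through the group where they were higher, so their calls are less firm. The counts per class below stand beside these shares of all tested genes, and with so few genes in a class they show no trait of a class. For any single gene the exact permutation test, two-sided, cannot give less than p = 0.1 with 3 against 3 libraries.

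**Figure D1:**
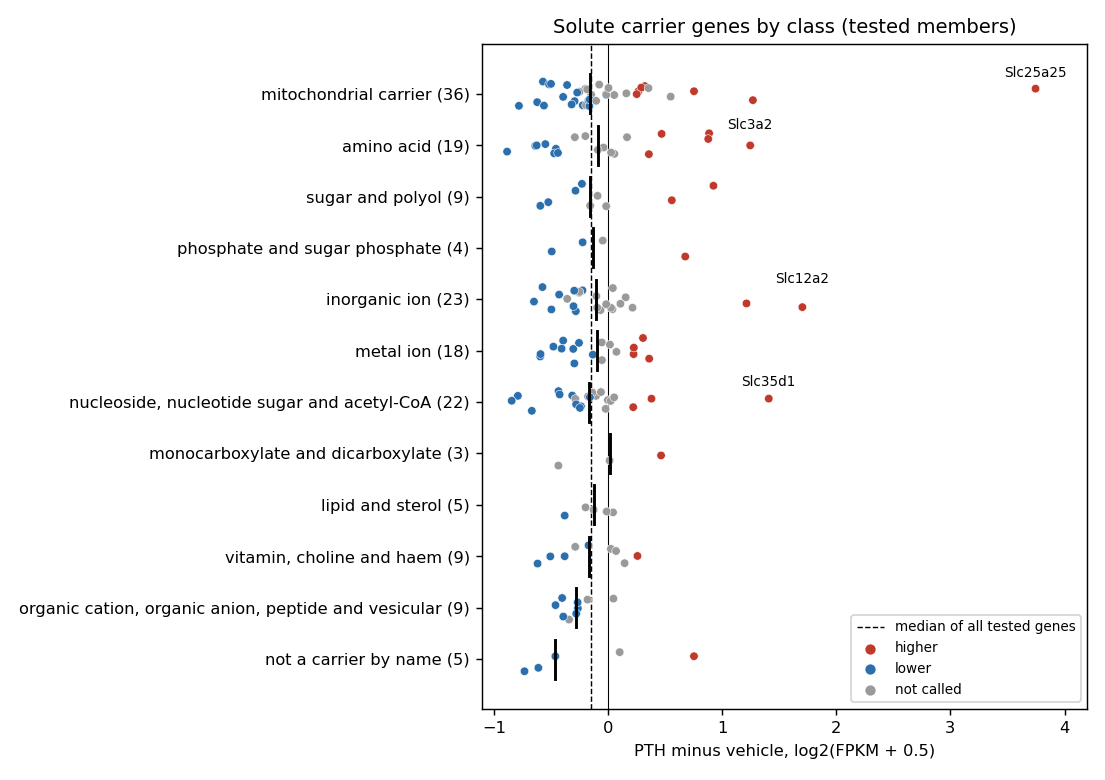
Each point is 1 of the 162 tested genes, placed by its PTH minus vehicle difference in log2(FPKM + 0.5) (x axis) and by substrate class (y axis, number tested in brackets). Black bars are class medians, the dashed line is the median of all tested genes, -0.15, and colours give the call. No point lies below -0.88. Rises of 1 or more lie only among mitochondrial, amino acid, inorganic ion and nucleoside or nucleotide sugar carriers, led by Slc25a25 at 3.75.

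**Figure D2:**
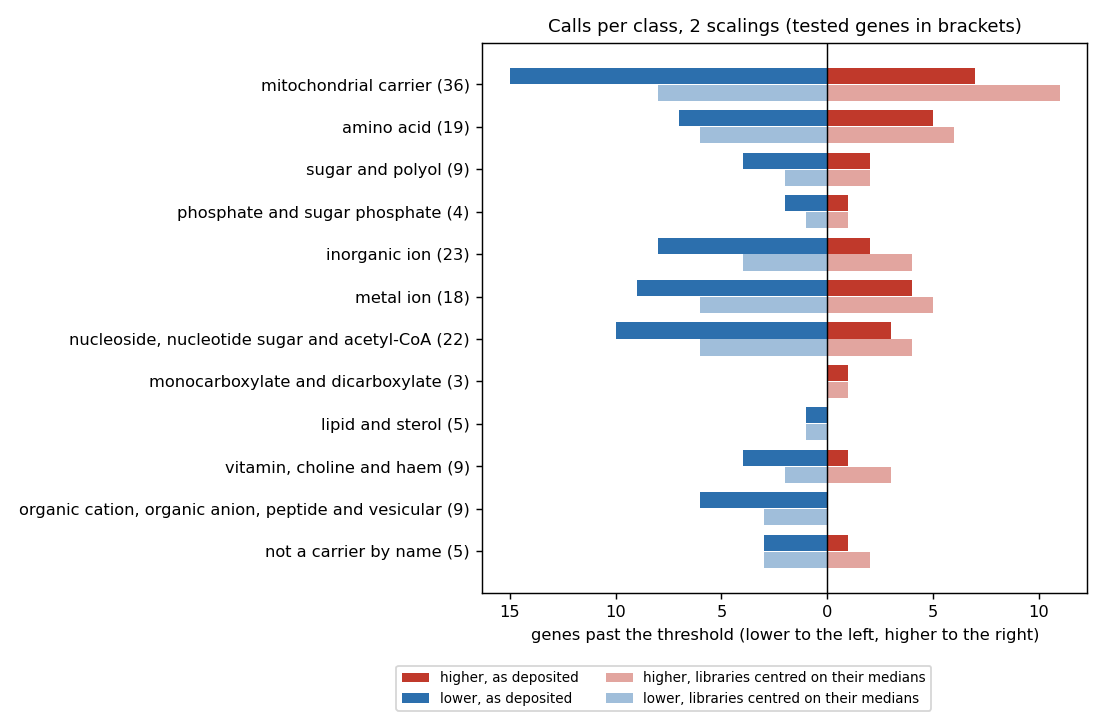
Bars give the number of genes called higher (to the right) or lower (to the left) in each class (y axis, number tested in brackets), with values as deposited in full colour and with centred libraries in pale colour. The calls of lower genes among mitochondrial carriers went from 15 to 8 and among inorganic ion carriers from 8 to 4.

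Mitochondrial carriers held the largest single rise, and of the 3 most abundant genes 1 rose and 2 did not pass the test. Of 36 tested, 7 were higher and 15 lower, and with centred libraries 11 and 8. Slc25a25 (ENSMUSG00000026819; chromosome 2, 32414487 to 32451445, minus strand) encodes a calcium-regulated carrier that exchanges ATP-magnesium for phosphate. Its level was 3.82, 5.08 and 4.44 FPKM in the vehicle libraries and 68.3, 61.4 and 66.9 FPKM in the PTH libraries. Every PTH library stood far above every vehicle library. The mean rose 14.7-fold, from 4.45 ± 0.633 to 65.5 ± 3.61 FPKM (SD, n = 3 each), which is 3.75 on the log2 scale (SE 0.10, limma adjusted p = 1.6e-06). Its close relatives did not rise: Slc25a24 fell by 0.29 on the log2 scale (SE 0.04, limma adjusted p = 0.0013), and Slc25a23 stood at -0.18 without passing the threshold (limma adjusted p = 0.32).

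Cofactor and iron carriers of the mitochondrion moved in both directions. Slc25a32, which carries folate or a flavin cofactor, stood at 8.64, 10.4 and 9.72 FPKM in vehicle and 22.5, 23.4 and 25.5 FPKM with PTH, with no overlap. It rose 2.48-fold (log2 1.27, SE 0.08, limma adjusted p = 6.5e-05). Slc25a28, the iron carrier mitoferrin 2, stood at 10.4, 12.7 and 11.1 FPKM in vehicle and 20.1, 19.5 and 18.7 FPKM with PTH, and rose 1.71-fold (log2 0.75, SE 0.08, limma adjusted p = 0.00042). Its paralogue Slc25a37, mitoferrin 1, was lower by -0.16 on the log2 scale (limma adjusted p = 0.032), a call lost with centred libraries. Slc25a38, a glycine carrier of haem synthesis, fell by 0.56 on the log2 scale. The rise of Slc25a28 was called under every scaling.

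Among the carriers of energy metabolism, the phosphate carrier Slc25a3 was the most abundant. Its level was 239.5, 251.9 and 240.5 FPKM in vehicle and 304.2, 309.6 and 301.6 FPKM with PTH, so the groups were well apart. It rose 1.25-fold (log2 0.32, SE 0.04, limma adjusted p = 0.00072), but was not called under every scaling. Its tested coding transcripts, at 0.08, 0.22 and 0.22 on the log2 scale, were not called. The transcripts called higher had a retained intron, were processed transcripts or were annotated to nonsense-mediated decay. The ADP/ATP exchangers Slc25a4 and Slc25a5, which have many near-identical pseudogene copies and are therefore uncertain, stood at -0.02 and -0.10 on the log2 scale and did not pass the threshold, though Slc25a5 was lower with the replicate block. Slc25a1, the citrate carrier, and Slc25a11, the oxoglutarate carrier, did not pass it either, at -0.02 and -0.08. The largest fall of the class was in Slc25a43, an orphan carrier, from 3.72, 3.7 and 3.81 FPKM to 1.89, 2.03 and 2.00 FPKM, a log2 difference of -0.78 (SE 0.06, limma adjusted p = 0.00017). Slc25a15, which carries ornithine, fell by 0.62 on the log2 scale. The libraries of both genes did not overlap between the groups.

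Amino acid carriers divided between strong rises in a few abundant genes and falls in others that share their substrates. Of 19 tested, 5 were higher and 7 lower, and with centred libraries 6 and 6. Slc3a2 (ENSMUSG00000010095; chromosome 19, 8706882 to 8723369, minus strand) encodes the CD98 heavy chain, the subunit that brings light chains of the Slc7 family to the cell surface. Its level was 53.4, 50.6 and 50.6 FPKM in vehicle and 121.4, 131.9 and 115.7 FPKM with PTH. The PTH libraries all stood above the vehicle libraries by more than the range within either group. The gene rose 2.39-fold (log2 1.25, SE 0.06, limma adjusted p = 1.7e-05).

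No light chain of the Slc7 family in the table was called higher. Slc7a6, a light chain that exchanges cationic for neutral amino acids, stood at -0.29 (SE 0.14) without passing the threshold (limma adjusted p = 0.13), and was lower only with the replicate block. Slc7a7 lay below the filter, at a mean of 0.783 FPKM in vehicle and 1.17 FPKM with PTH. Slc7a5 and Slc7a11 are not analysed here. Of the cationic amino acid carriers, which work without the heavy chain, Slc7a2 fell by 0.44 on the log2 scale (SE 0.05, limma adjusted p = 0.00084). Slc7a1 stood at 0.17 and passed the threshold only with the replicate block (limma adjusted p = 0.26 without it and 0.023 with it).

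The sodium-coupled carriers of glutamine and glutamate also differed from each other. Slc38a2 (chromosome 15, 96687392 to 96699730, minus strand), which brings small neutral amino acids including glutamine into the cell, stood at 86.7, 91.1 and 101 FPKM in vehicle and at 165.1, 163.2 and 185.2 FPKM with PTH. Its groups did not overlap, and it rose 1.84-fold (log2 0.88, SE 0.07, limma adjusted p = 0.00021). Slc1a3, the glutamate and aspartate carrier GLAST, stood at 44.5, 32.1 and 37.7 FPKM in vehicle and at 75.7, 69.7 and 65.6 FPKM with PTH, a rise of 0.89 on the log2 scale (SE 0.12, limma adjusted p = 0.0011). Its groups did not overlap either, and the rise was 0.56 when only the transcript with the highest mean was used. Slc1a5, a neutral amino acid exchanger that also carries glutamine, went the other way, from 37.5, 40.5 and 45.3 FPKM to 26.1, 27.9 and 29.6 FPKM, a log2 difference of -0.55 (SE 0.08, limma adjusted p = 0.0017). All 3 PTH libraries of Slc1a5 were below all vehicle libraries, but its most abundant transcript alone differed by -0.14 and did not pass the threshold.

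The largest fall of all solute carriers was that of Slc43a1, a carrier of branched-chain and other large neutral amino acids that needs no sodium. It stood at 4.41, 4.61 and 4.69 FPKM in vehicle and 2.18, 2.16 and 2.40 FPKM with PTH, 2.03-fold lower (log2 -0.88, SE 0.07, limma adjusted p = 0.00012). The groups did not overlap. Slc38a7, which releases glutamine from lysosomes, fell by 0.62 on the log2 scale. The proton-coupled amino acid carrier Slc36a1 fell by 0.46, and its relative Slc36a4 rose by 0.36. Slc6a6, the taurine carrier, fell by 0.47, from a mean of 54.0 ± 2.05 to 38.8 ± 3.17 FPKM (SD, n = 3 each). Slc1a4, an exchanger of alanine, serine and cysteine, was lower by -0.64 (limma adjusted p = 0.029), a call that was lost with centred libraries and when single libraries were left out. Slc38a10, which is abundant at 81.5 to 88.1 FPKM over the 6 libraries, did not pass the threshold (log2 -0.04).

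**Figure D3:**
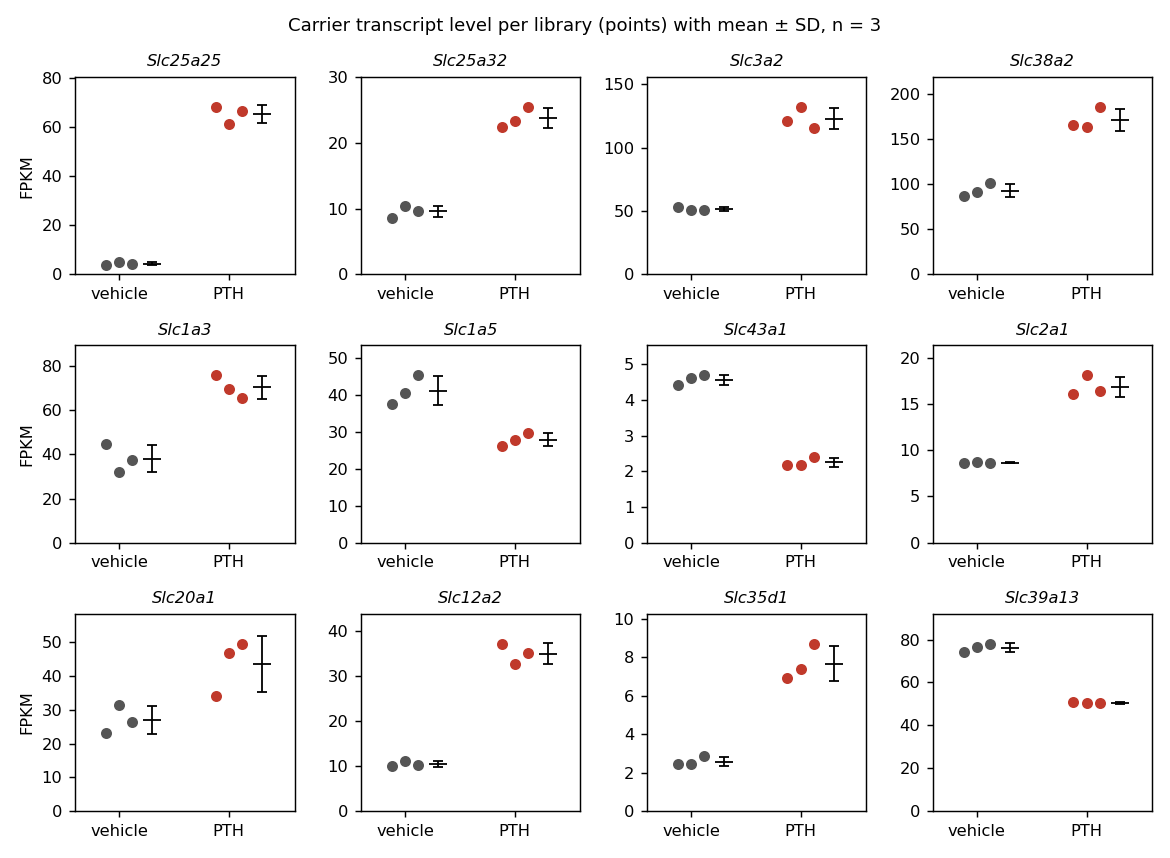
Panels give the FPKM (y axis, from 0) of 12 carrier genes in each library, vehicle in grey and PTH in red, with the mean ± SD (n = 3) as a black bar to the right. The groups do not overlap in any panel; Slc1a5, Slc43a1 and Slc39a13 are lower with PTH and the other 9 are higher.

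In the sugar and polyol class, 2 of 9 tested genes were higher and 4 lower, and with centred libraries 2 and 2. Slc2a1 (chromosome 4, 119108711 to 119137983, plus strand), the glucose transporter GLUT1, was at 8.65, 8.68 and 8.57 FPKM in vehicle and at 16.1, 18.1 and 16.4 FPKM with PTH. The vehicle libraries were nearly equal and the PTH libraries stood well above them. The rise was 1.95-fold (log2 0.92, SE 0.06, limma adjusted p = 5.6e-05). Slc5a3, which takes up myo-inositol with sodium, was at 3.15, 2.26 and 2.92 FPKM in vehicle and at 4.56, 3.55 and 4.88 FPKM with PTH, a rise of 0.56 on the log2 scale (SE 0.15, limma adjusted p = 0.017). Its groups did not overlap, but its locus lies within Mrps6 on the same strand, the reads of both genes may be shared, and leaving out PTH library 1 or 3 moved the adjusted p to 0.053 or 0.056.

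The other sugar carriers were lower or not called. Slc2a6, an intracellular glucose transporter, fell by 0.59 on the log2 scale (SE 0.11, limma adjusted p = 0.0042). Slc50a1, which transports sugars at the Golgi and plasma membrane, fell by 0.23, and Slc45a4, a proton-coupled sugar transporter, by 0.28, calls that were lost with centred libraries. Slc5a6, placed in the class by its family number, carries biotin and pantothenate and fell by 0.52, but its most abundant transcript alone differed by -0.07 without passing the threshold. Slc2a3, the glucose transporter GLUT3, was below the filter, with at most 0.297 FPKM in any library. Slc16a1, the monocarboxylate transporter MCT1 that moves lactate, rose by 0.46 on the log2 scale, from 5.19, 6.98 and 6.39 FPKM to 8.15, 8.85 and 9.03 FPKM without overlap (SE 0.11, limma adjusted p = 0.01). Slc16a3, the lactate exporter MCT4, was below the filter at a mean of 0.398 FPKM in vehicle and 0.631 FPKM with PTH.

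Both sodium-phosphate cotransporters of the Slc20 family were detected, and they moved in opposite directions. Slc20a1 (ENSMUSG00000027397; chromosome 2, 129198764 to 129211616, plus strand), known as PiT1, was at 23.1, 31.3 and 26.3 FPKM in vehicle and at 34.0, 46.8 and 49.6 FPKM with PTH. The lowest PTH library was only a little above the highest vehicle library, and in both groups library 1 was the lowest. The rise was 1.62-fold (log2 0.68, SE 0.17), with a limma adjusted p of 0.013 without and 0.00079 with the replicate block. The antisense gene 9830144P21Rik overlaps the locus, and how strand was used in the estimate is not stated.

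Slc20a2, known as PiT2, was at 12, 10.8 and 11.6 FPKM in vehicle and at 9.86, 9.43 and 9.95 FPKM with PTH. These groups did not overlap, yet the difference was small (log2 -0.22, SE 0.06, limma adjusted p = 0.015), and it was -0.10 and no longer called with centred libraries. Slc37a4, the glucose-6-phosphate translocase of the endoplasmic reticulum, fell by 0.49 on the log2 scale (SE 0.10, limma adjusted p = 0.0052). That call held with centred libraries, but no tested gene of the class was lower with loess, quantile normalisation or TPM. Slc37a3 missed the threshold (log2 -0.05, limma adjusted p = 0.36) and had the opposite sign, 0.08, with centred libraries. The phosphate exporter Xpr1 and the pyrophosphate carrier Ank, fixed as partners outside the Slc names, stood at -0.04 and 0.07 and did not pass the threshold. Ank was called higher with centred libraries.

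Among inorganic ion carriers, Slc12a2 and Slc41a2 rose strongly. Of 23 tested, 2 were higher (8.70%) and 8 lower (34.8%), near or below the 10.8% and 41% of all tested genes. With centred libraries the counts were 4 and 4, and with loess 7 and 4. Slc12a2 (ENSMUSG00000024597; chromosome 18, 57878678 to 57946821, plus strand), the sodium-potassium-chloride cotransporter NKCC1 that loads cells with chloride, was at 9.97, 11.1 and 10.1 FPKM in vehicle and at 37.1, 32.6 and 35.1 FPKM with PTH. No other solute carrier gene but Slc25a25 had a larger log2 difference among those tested. The rise was 3.36-fold (log2 1.70, SE 0.07, limma adjusted p = 9.5e-06).

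Potassium-chloride cotransporters, which move chloride out of the cell, did not rise in the genes described here. Slc12a4 fell by 0.28 on the log2 scale (limma adjusted p = 0.0066), a call lost with centred libraries. Slc12a7 stood at -0.36 with a wide spread (SE 0.15, limma adjusted p = 0.09) and was lower only with the replicate block. Slc12a9, a relative in the same family, fell by 0.50.

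Slc41a2, a magnesium carrier, was at 9.34, 10.7 and 9.93 FPKM in vehicle and at 22, 22.9 and 26.7 FPKM with PTH, and rose 2.39-fold (log2 1.21, SE 0.09, limma adjusted p = 0.0001). Its groups were far apart. Its relatives Slc41a1 and Slc41a3 did not pass the threshold, at 0.04 and -0.25, though Slc41a3 was lower with the replicate block. Slc24a6, the sodium-calcium exchanger of mitochondria, fell by 0.65 on the log2 scale, from a mean of 3.26 ± 0.425 to 1.90 ± 0.220 FPKM (SD, n = 3 each). Of the exchangers of the plasma membrane, the sodium-calcium exchanger Slc8a1 did not pass the threshold (0.04), while Slc4a2, which exchanges chloride for bicarbonate, fell by 0.30, a call lost with centred libraries. Slc26a2, the sulfate carrier of cartilage and bone, stood at 0.11 and missed the threshold (limma adjusted p = 0.38), but Slc26a11, another sulfate carrier, fell by 0.57.

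Metal ion carriers moved in both directions by modest amounts. Of 18 tested, 4 were higher and 9 lower, with centred libraries 5 and 6, and with TPM 0 and 2. The fall of Slc39a13, a zinc transporter of the secretory pathway whose loss causes a connective tissue disorder with skeletal defects, was among the largest of the class. It was at 74.4, 76.5 and 78.1 FPKM in vehicle and at 50.9, 50.4 and 50.2 FPKM with PTH, 1.51-fold lower (log2 -0.59, SE 0.04, limma adjusted p = 6.7e-05). The PTH libraries were nearly equal and all lay below the vehicle libraries, though Psmc3 overlaps the locus on the other strand.

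Other zinc carriers moved in both directions. Slc30a4 rose by 0.31 (SE 0.07, limma adjusted p = 0.011) and Slc30a9 by 0.22 (limma adjusted p = 0.007) on the log2 scale. Slc39a7 fell by 0.25, Slc30a7 by 0.39 and Slc30a6 by 0.41 on the log2 scale, while Slc30a5 stood at 0.02 and was not called. The call for Slc39a7 was lost with centred libraries. At the cell surface, Slc39a14, which takes up zinc, iron and manganese, rose by 0.36 (SE 0.07, limma adjusted p = 0.0064), from a mean of 20.4 ± 1.49 to 26.3 ± 1.81 FPKM (SD, n = 3 each). Copper carriers split: Slc31a1, the main copper importer, rose by 0.23, and Slc31a2 fell by 0.59. No rise of a metal ion carrier was called with TPM. The iron exporter Slc40a1 was below the filter, at a mean of 1.19 FPKM in vehicle and 0.480 FPKM with PTH.

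In the class of nucleoside and nucleotide sugar carriers, 3 of 22 tested genes were higher and 10 lower, and with centred libraries 4 and 6. Slc35d1 (chromosome 4, 103170649 to 103215164, minus strand) brings the UDP-sugars used for chondroitin sulfate into the endoplasmic reticulum. It was at 2.42, 2.44 and 2.86 FPKM in vehicle and at 6.95, 7.37 and 8.72 FPKM with PTH, 2.98-fold higher (log2 1.41, SE 0.10, limma adjusted p = 0.00011). Its paralogue Slc35d2, at 2.03, 1.99 and 1.75 FPKM in vehicle, was at 0.946, 0.781 and 0.822 FPKM with PTH (log2 -0.84, SE 0.10, limma adjusted p = 0.00067). The groups of the paralogues were separate and lay in opposite order. Slc35d2 passed the filter only through the vehicle libraries, where it was higher, so its call is among the least firm.

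Further members of the class moved in both directions. Slc35c1, the GDP-fucose carrier of the Golgi, fell by 0.67 on the log2 scale, and Slc35b2, which carries the sulfate donor PAPS, by 0.24, though the call for Slc35b2 was lost with centred libraries. Slc29a3, a nucleoside carrier of lysosomes, was at 8.91, 8.48 and 8.85 FPKM in vehicle and at 4.67, 5.17 and 4.71 FPKM with PTH, a log2 difference of -0.79 (SE 0.06, limma adjusted p = 0.00011) with no overlap. Slc29a1, the nucleoside carrier of the plasma membrane, fell by 0.31, and Slc33a1, which takes acetyl-CoA into the endoplasmic reticulum, by 0.43. Slc35e1 rose by 0.38, and Slc35a3, a UDP-N-acetylglucosamine carrier, by 0.22, a call that was lost when single libraries were left out.

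The smaller classes had calls in both directions. Of 9 tested vitamin, choline and haem carriers 1 was higher and 4 were lower, and with centred libraries 3 and 2. Loess gave 2 and 0, and TPM 0 and 1. The higher one was Slc23a2, which takes up the ascorbate that collagen hydroxylation needs, with a rise of 0.26 on the log2 scale (SE 0.04, limma adjusted p = 0.0032). Both folate carriers of the cell membrane fell, Slc19a1 by 0.38 and Slc46a1 by 0.51. Of 9 tested carriers of organic ions, peptides and vesicular transmitters 0 were higher and 6 lower (limma), and with centred libraries 0 and 3. At an unadjusted p under 0.05 the higher count was also 0. The replicate block gave 0 and 8, block and centring together 1 and 4, loess 1 and 1, quantile normalisation 1 and 1, and TPM 0 and 0. The only positive difference as deposited was 0.05, in Slc17a5, the lysosomal sialic acid carrier. Of 5 tested lipid and sterol carriers 1 was lower, Slc27a3, a fatty acid transport protein that fell by 0.38.

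The scaffold genes counted among the symbols that are not carriers moved in opposite directions. Slc9a3r1 encodes NHERF1, which binds the PTH receptor and sodium-phosphate cotransporters in kidney. It was at 19.1, 14.7 and 16.6 FPKM in vehicle and at 31.3, 27.5 and 26.8 FPKM with PTH, 1.70-fold higher (log2 0.75, SE 0.10, limma adjusted p = 0.0013). Slc9a3r2, which encodes the related NHERF2, was at 8.30, 9.61 and 9.94 FPKM in vehicle and at 4.93, 5.87 and 5.38 FPKM with PTH, 1.72-fold lower (log2 -0.73, SE 0.09, limma adjusted p = 0.00082). Neither gene's groups overlapped.

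Summed in FPKM, a scale on which a few abundant genes weigh most, solute carrier transcripts reached 3078 to 3150 in the vehicle libraries and 3294 to 3305 in the PTH libraries. The amino acid class went from a mean of 512.3 ± 17.4 to 654.3 ± 3.15 and the mitochondrial class from 996.3 ± 15.2 to 1106 ± 12.2 (SD, n = 3 each). Slc38a2 gained 78.2 FPKM, Slc3a2 71.5, Slc25a3 61.2 and Slc25a25 61.1. The metal ion class went down, from 521.0 ± 18.6 to 472.0 ± 7.66, with Slc39a13 at -25.8 FPKM and Slc39a7 at -24.4 FPKM. The FPKM of all genes together totalled 677256 to 853916 in the vehicle libraries and 618221 to 814132 in the PTH libraries. Taken as a share of these totals, the solute carrier sums of the groups overlap. All of these sums are descriptions without a test.

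A list of 23 transporters known from osteoblasts had 21 genes in the table and 17 tested, of which 8 were higher and 4 lower, with a median log2 difference of 0.17. With centred libraries the counts were 8 and 2. Of all tested genes, 10.8% were higher and 41% lower as deposited, and 18.3% and 24% with centred libraries. The list was compiled with earlier results of these data known, so its counts are a description. Of 26 partner genes outside the Slc names, 23 were in the table and 20 tested. Of these 20, 4 were higher and 5 lower, and with centred libraries 9 and 2, against the same shares of all tested genes. Emb, a chaperone of monocarboxylate transporters, rose by 0.59 on the log2 scale. Chac1 stood at -0.47 and Sfxn1 at -0.43, both called lower, also with centred libraries. Chac1 was near the filter, at a mean of 1.37 FPKM in vehicle and 0.851 FPKM with PTH. Txnip, which restrains glucose transporters, was at 36.5, 21 and 33.9 FPKM in vehicle and at 20.6, 9.21 and 15 FPKM with PTH, a fall of all 3 PTH libraries below the vehicle libraries by a mean log2 of -1.04 (SE 0.32, limma adjusted p = 0.031). The call for Txnip was lost with centred libraries.

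At the level of single transcripts, 302 transcripts of 157 solute carrier genes had a mean of at least 1 FPKM, and 37 were higher and 68 lower with PTH. Of all tested transcripts, 8.13% were higher and 22.2% lower. In 60 genes with 2 or more tested transcripts, the change of each transcript was compared with that of the gene's others. Unequal change was called in 4, Slc25a25, Slc3a2, Slc1a3 and Slc12a4, where the same test called 3.65% of all genes. The diffSplice test of limma called 8 solute carrier genes and 10.0% of all genes, and 3 were called by both.

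The 2 tested transcripts of Slc25a25 begin at separate start sites. ENSMUST00000113307, whose annotated start at 32424005 lies in the stretch just downstream of the printed window, was at 0.819, 1.25 and 0.558 FPKM in vehicle and at 35.2, 31.4 and 35.6 FPKM with PTH. ENSMUST00000113310, which starts upstream at 32451445, was at 2.78, 3.59 and 3.53 FPKM in vehicle and at 30.2, 27.5 and 28.7 FPKM with PTH. Both rose, by 4.68 (SE 0.18) and 2.95 (SE 0.10) on the log2 scale, and the test of unequal change gave a limma adjusted p of 0.0081. In vehicle the upstream transcript was the more abundant in every library, and with PTH the downstream one was.

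In the other genes the called inequality had a different form. The rise of Slc3a2 was that of ENSMUST00000010239, by 1.32 on the log2 scale (SE 0.06), while ENSMUST00000170157, which starts upstream, stood at -0.01 (SE 0.11) and was not called. In Slc1a3 the main coding transcript ENSMUST00000005493 rose by 0.56, the retained-intron transcript ENSMUST00000125997 by 1.74 and the processed transcript ENSMUST00000153455 by 1.66. In Slc12a4 the retained-intron transcript ENSMUST00000141326 differed by -0.88, from a mean of 5.01 to 2.50 FPKM, and the coding transcript ENSMUST00000116429 stood at -0.15 and was not called. Slc25a22, a mitochondrial glutamate carrier, was not called by the test of each transcript against the others (limma adjusted p = 0.15). It was called only by diffSplice (adjusted p = 0.0027), which made false calls on simulated data. It had called transcripts of both signs: ENSMUST00000124266, annotated to nonsense-mediated decay, rose by 0.38, and ENSMUST00000140602, with a retained intron, fell by 0.70. Transcript values are estimates that divide shared reads between overlapping models.

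**Figure D4:**
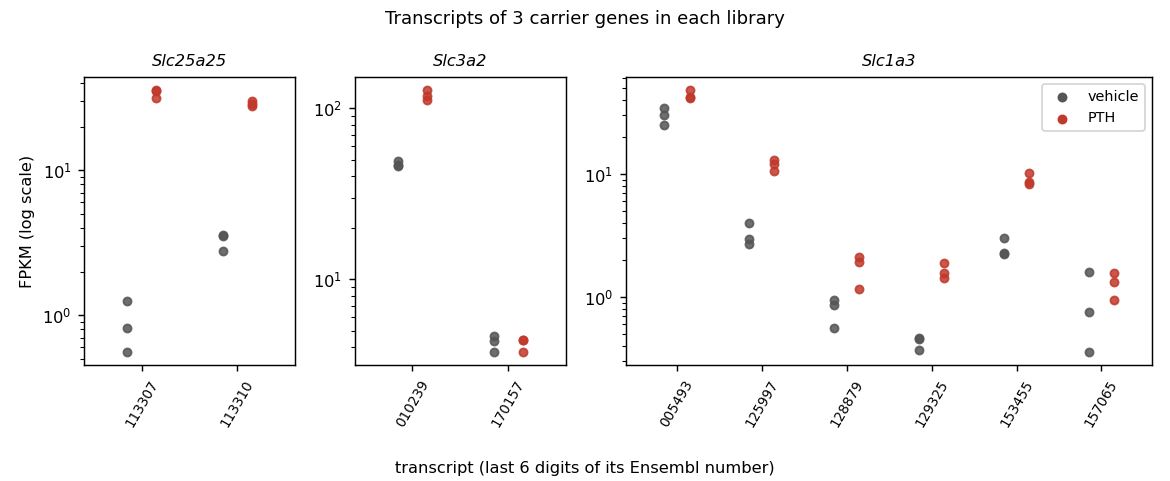
Points give the FPKM (y axis, log scale) of each tested transcript of Slc25a25, Slc3a2 and Slc1a3 in each library, vehicle in grey and PTH in red, with transcripts on the x axis by the last 6 digits of their Ensembl number. Both Slc25a25 transcripts are higher with PTH, only the first of the Slc3a2 transcripts is, and the last of Slc1a3 is the one whose groups overlap.

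Of the tested genes, 4 had a mean under 1 FPKM in one group and passed the filter through the other, namely Slc1a6, Slc35d2, Slc25a42 and Slc46a3, so their calls are the least firm. The 27 genes below the filter had means of at most 0.978 FPKM over the 6 libraries and are described no further here. Of the 189 members, 83 are represented by 1 transcript each, and 42 overlap another gene of the table, where reads could be divided between the genes.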

How the data were processed

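RNA from 3 vehicle and 3 PTH libraries was sequenced as paired-end stranded mRNA libraries, and the authors estimated transcript abundance as FPKM with Cufflinks, per the labels' protocols. The deposited FPKM values refer to mm10, per the submitters' processing notes. For the aligner, its settings and all versions the entry is: not given in the sources used here. Comparison columns of the authors were not used. Low values showed no regular whole-read steps, so depth is unknown.

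Transcript values were summed per symbol, and log2(FPKM + 0.5) was tested with limma 3.58.1 (R 4.3.3; lmFit, eBayes with trend) over all genes with a mean of at least 1 FPKM, two-sided, with Benjamini-Hochberg adjustment over all of them and a threshold of 0.05. Fold changes on this scale understate the change of low genes. No block was used in this main fit. Deviations of same-numbered libraries from their group means correlated at 0.42, 0.28 and 0.28, and those of differently numbered libraries at -0.29 to -0.026. The numbers may therefore mark pairs, and the fit with the number as a replicate block was run beside the main fit. Calls and p-values ignore such pairing unless the replicate block is named. Unequal change was tested with diffSplice and, because diffSplice made false calls on simulated data, with a test of each transcript against the sum of the gene's others, which was added after seeing the data. The gene, transcript and added tests were tested on simulated data.

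All 189 member gene IDs and 514 of 519 member transcripts were found in GENCODE M21, which gave coordinates, 1-based. Promoter windows are RefSeq sequences (GRCm38.p6). Joins and plots used matplotlib 3.10.9, pandas 2.3.3 and Python 3.11.15. The members and lists were chosen with earlier results of these data known. Some symbols of the pattern are not reported here. Classes follow family numbers. Slc9a3r1 and Slc9a3r2 were set apart as not carriers, and 3 more such symbols were added after seeing the table. Named genes are the 10 largest rises and 10 largest falls without overlap, up to 3 more each way per class, the phosphate class, the osteoblast list, up to 4 partners, and genes with transcripts called in both directions; further members named beside them, chosen as paralogues or relatives, were chosen after their values were seen. Alternatives were other pseudocounts and filters, 4 other scalings, the highest transcript only, the replicate block, and leaving out libraries.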

Additional observations from a re-analysis of the deposited data

How the results depend on the processing

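Counts of calls moved with the scaling and the filter, and the cause was not tested. With centred libraries 2131 genes of the whole table were higher and 2792 lower, with cyclic loess 2345 and 2051, and 2890 were higher with the replicate block and centring together. TPM gave 1222 lower genes, quantile normalisation 3096 and a filter of 5 FPKM 3407. Solute carrier genes higher were 17 with TPM, 49 with loess and 51 with the replicate block and centring, and those lower were 42 with centring, 18 with TPM, 43 with quantile normalisation, 31 with loess and 41 with a filter of 5 FPKM, where fewer genes are tested. Lower solute carrier transcripts were 44 with centring and 31 with the 5 FPKM filter, and leaving out libraries gave 23 to 30 higher transcripts. These transcript counts are given without the share of all tested transcripts. The diffSplice calls were 13 without a filter, 3 with the 5 FPKM filter, 4 by the added test and 5 to 9 with libraries left out.

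With the replicate block alone, 32 solute carrier genes were higher and 82 lower, against 1605 and 5811 genes of the whole table. Without the libraries numbered 1, which had the lowest osteoblast marker levels, 26 were higher and 58 lower, against 1153 and 4202 of the whole table. Signs reversed for Slc37a3 (centring with or without the replicate block 0.078, TPM 0.045, quantile 0.067, loess 0.12), Slc25a22 (loess 0.045), Slc8a1 (leaving out single libraries, -0.016 to 0.090) and Slc30a5 (-0.010 to 0.043); none of these 4 genes was called as deposited, and Slc37a3 was called higher with loess. Of 70 named genes 64 were called, 55 kept their side of the threshold and direction whichever library, or both numbered 1, was left out, and 25 did under every setting. Calls lost without 1 library were those of Slc1a4, Slc5a3, Slc35a3, Slc20a2, Slc46a3 and Slc25a16, and without both libraries numbered 1 also those of Slc1a6, Slc22a21 and Slc22a17. Depth is unknown, so the precision of low values cannot be stated.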
